A study of Sus scrofa with 16 samples.

Results

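Expression of 10 genes of fatty acid synthesis and fatty acid oxidation was described in the pituitary of 16 pigs. The genes were the rows of the deposited count table whose Ensembl identifier carried the symbol SREBF1, ACLY, ACACA, FASN, SCD, ELOVL5, ELOVL6, CPT1A, ACADM or HADHA in the gene table deposited beside it. All 10 symbols were found, each with 1 identifier, among 25880 genes in the table, and all 10 were among the 13621 genes with enough counts to be tested. The pigs were female Zlotnicka white pigs, a native Polish breed, labelled with day 180. They were fed and housed alike and slaughtered at nearly the same live weight, and the whole pituitary was taken from each. The groups were 8 pigs with low feed conversion (LFC), which used less feed for each unit of weight gained, and 8 pigs with high feed conversion (HFC), which used more. The labels gave no genotype or treatment that set the groups apart, so the comparison was between animals ranked by a trait within 1 breed. The study reported that the HFC pigs also gained less weight per day, spent more days in the test and reached the final weight later. Their carcasses had thicker fat at several points and less meat. The day label was the same for every pig, so it does not show whether the groups were of equal age at slaughter. The age of each pig was not given. Feed conversion cannot be told apart from these traits, or from a difference in age, here.

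Cells make fatty acids in the cytosol from acetyl-CoA, which comes from citrate exported by the mitochondrion, and they break them down in the mitochondrion by the repeated removal of acetyl-CoA units, which is called beta-oxidation. The pathways are linked by malonyl-CoA, the building block of synthesis, which also blocks the entry of long-chain fatty acids into the mitochondrion. The transcription factor SREBP-1, encoded by SREBF1, drives the genes of synthesis, while beta-oxidation is governed largely by other regulators. In the pituitary, a gland of hormone-secreting cells with much internal membrane, fatty acids are needed for membrane lipids as well as for fuel.

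The libraries held between 6010629 and 11794256 counts per pig, and the members had between 121 and 3143 counts in any pig. Values are given as CPM, counts scaled to library size and TMM factor. They are not divided by gene length and cannot be compared between genes. Markers of the hormone cells of the anterior lobe (GH1, PRL, CGA, GHRHR, POU1F1, TBX19 and CHGB) had a summed level of between 89300 and 217000 CPM in every pig. POMC was also listed but was not found by symbol. Single markers differed between the groups at an unadjusted p of at most 0.05. PRL was 30100 ± 13400 CPM for LFC and 72500 ± 27500 CPM for HFC (SD, n = 8 each, edgeR adjusted p = 0.372), CGA and TBX19 had log2 fold changes of -0.56 and -0.53 (adjusted p = 0.433 and 0.413), and the collagen gene COL1A2 had one of 0.89 (adjusted p = 0.372). COL1A2 was the only 1 of 6 fibroblast markers tested that had an unadjusted p of at most 0.05. Of the 6, 4 had a positive log2 fold change and the others a negative one. What part the hormone cell and fibroblast markers had in the members' values was not tested. Of the adipocyte markers, LEP had no count in 14 of 16 pigs, and ADIPOQ, PLIN1 and CIDEC reached at most 9, 6 and 10 counts, while FABP4 had 57 to 144 counts in every pig. In whole tissue, fewer cells of a type and less RNA per cell cannot be told apart. For each pig, the log2 expression of each gene minus its mean over the 16 pigs was regressed on the log2 of its genomic span. The slope and its sign are therefore relative to the average pig. The slope was lowest in 3 pigs, LFC replicate 6, LFC replicate 4 and HFC replicate 5, where long genes were lower than short genes by this measure. The slope was -0.0826, -0.0813 and -0.0643 in these pigs, and -0.02 or more in the other 13 pigs. Of those 13, LFC replicates 1, 3 and 5 also had a slope below 0, with -0.0037, -0.018 and -0.02. The mean slope was -0.0168 ± 0.0445 for LFC and 0.0168 ± 0.0376 for HFC (SD, n = 8 each, exact two-sided permutation p = 0.125). The slope is given beside the members that moved with it.

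None of the 10 genes passed the threshold between the groups, which asked for a fold change of at least 1.3 with an adjusted p no higher than 0.05. By edgeR's quasi-likelihood test, which called 0.00% of all genes tested, their smallest adjusted p was 0.41. The same was true with DESeq2 as run here, which called 0.216% of genes and no member. The study also used DESeq2 at these thresholds, and it lists FASN, ACACA and SREBF1 among its differentially expressed genes of this breed. The cause of this difference was not tested. At an unadjusted edgeR p of at most 0.05, which 11.4% of all genes tested reached, 3 of the 10 genes were found, namely SREBF1, FASN and ACACA. All 3 were higher in the HFC pigs, as were 7.03% of all genes tested, and no member was higher in the LFC pigs, where 4.41% of all genes were. The split over all genes depended on the scaling, since 61.4% of the genes at that p were higher in the HFC pigs with TMM, 52.6% with the upper quartile and 46% with total library size. Without HFC replicate 5, the share of all genes at that p was 25.7% and the members numbered 4, with ACLY as the addition. All 6 genes with a positive log2 fold change belonged to synthesis, and ELOVL6 and the 3 oxidation genes had a negative one. The median over the members was 0.17 on the log2 scale, against -0.01 over all genes tested. The groups overlapped for every member. Over all genes tested, 0.00734% did not overlap.

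**Figure D1:**
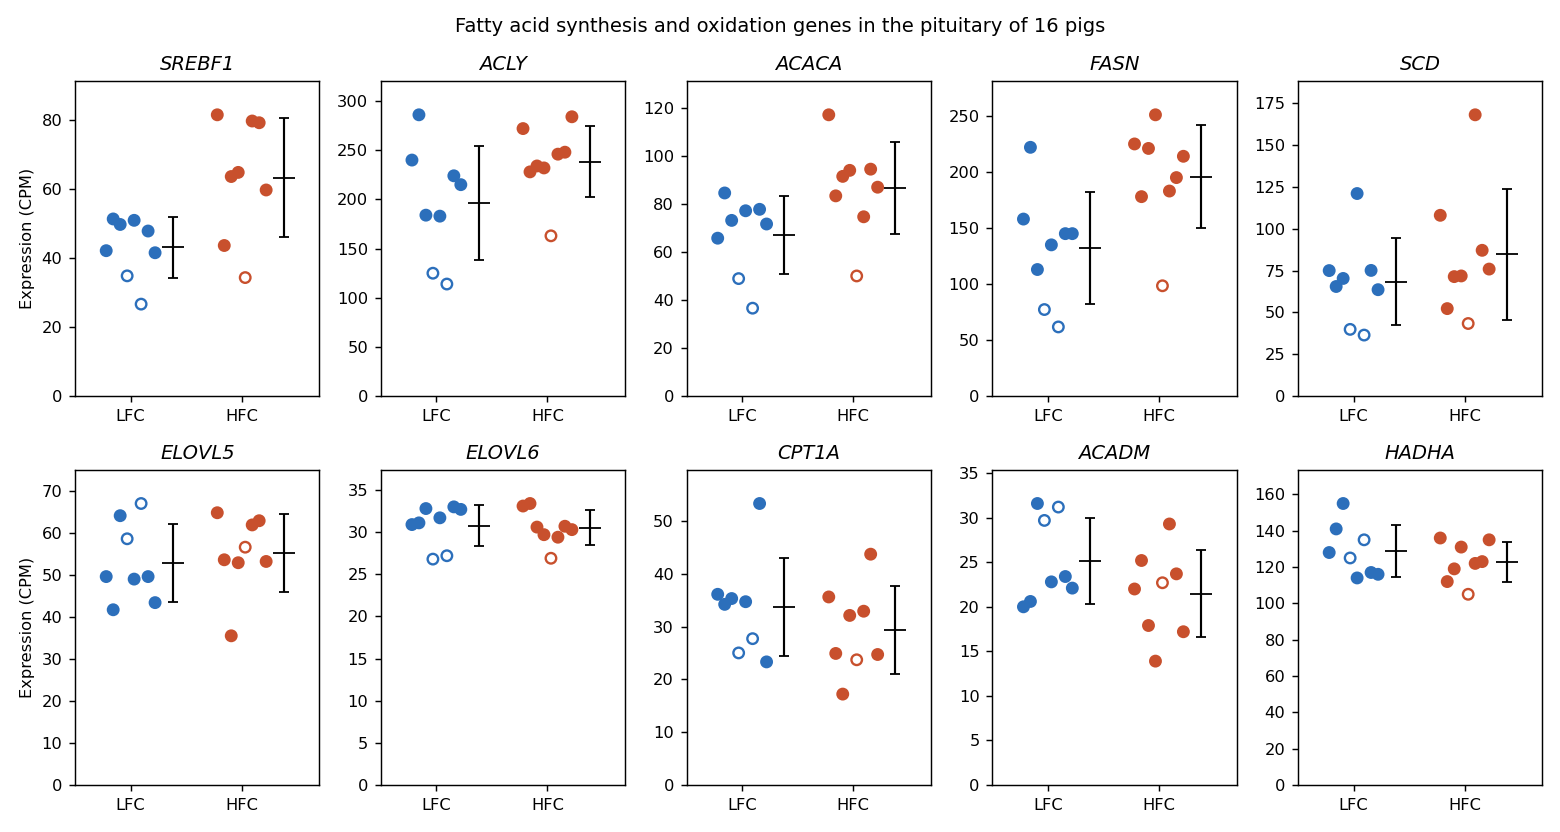
Expression of each gene in CPM, with 1 point per pig for the 8 LFC and 8 HFC pigs and the mean with SD beside each group. Open circles are the 3 pigs with the lowest slope of expression on gene span, which were the lowest pigs of their group for SREBF1, ACLY, ACACA and FASN and lay within or above the rest for ELOVL5 and HADHA in the LFC pigs.

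SREBF1 (ENSSSCG00000033626, chromosome 12, 60733977 to 60752502 on Sscrofa11.1), the regulator of the synthesis genes, had the smallest p of the members. Its level ran from 26.7 CPM through a median of 45 CPM to 51.4 CPM in the LFC pigs and from 34.4 CPM through 64.3 CPM to 81.6 CPM in the HFC pigs. In 6 of 8 HFC pigs it exceeded every LFC pig, and the HFC pigs inside the LFC range were replicate 5 with 34.4 CPM and replicate 2 with 43.7 CPM. The log2 fold change of HFC over LFC was 0.55 ± 0.17 (SE, 95% interval 0.20 to 0.91, n = 8 each), with an edgeR adjusted p of 0.41. The exact two-sided permutation test over the pigs gave p = 0.0185. Without the 3 pigs of low slope, an omission chosen after seeing the data, the difference was 0.52 (edgeR adjusted p = 0.238). With the slope as a covariate it was 0.33 (edgeR adjusted p = 0.999). In both fits the unadjusted p was under 0.05, which 14.4% of all genes reached without the 3 pigs and 4.77% with the covariate. The part of the slope in this difference was not tested.

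The 3 enzymes of the route from citrate to palmitate came next. ACLY (ENSSSCG00000017421, chromosome 12, 20796741 to 20841298) cleaves citrate and so supplies acetyl-CoA to the cytosol. It ranged from 114 CPM to 286 CPM with a median of 199 CPM in the LFC pigs, and from 163 CPM to 284 CPM with a median of 240 CPM in the HFC pigs. The highest pig of all was LFC replicate 2, and 7 of 8 HFC pigs were above the LFC median. The difference of HFC over LFC was 0.28 ± 0.17 on the log2 scale (SE, n = 8 each, edgeR adjusted p = 0.479, exact permutation p = 0.106), which did not pass even without adjustment. In 2 of the 16 fits that each left out 1 pig the unadjusted p was under 0.05, with a log2 fold change of 0.38 without LFC replicate 2 and of 0.36 without HFC replicate 5.

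ACACA (ENSSSCG00000017694, chromosome 12, 38581451 to 38875134) encodes acetyl-CoA carboxylase, which makes malonyl-CoA and commits carbon to synthesis. The LFC pigs lay between 36.6 CPM and 84.5 CPM with a median of 72.3 CPM, and the HFC pigs between 50 CPM and 117 CPM with a median of 89.2 CPM. In 5 HFC pigs the level was above that of every LFC pig, while HFC replicate 5 fell among the lowest LFC pigs. ACACA had a log2 fold change of 0.37 ± 0.17 (SE, 95% interval 0.02 to 0.72, n = 8 each, edgeR adjusted p = 0.431), and the exact permutation p was 0.0693. The unadjusted edgeR p stayed at or under 0.05 in 9 of the 16 fits that left out 1 pig, and it passed above 0.05 when total library size replaced TMM.

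FASN (ENSSSCG00000029944, chromosome 12, 922418 to 937560), the multienzyme that builds palmitate from malonyl-CoA, was between 61.8 CPM and 222 CPM with a median of 140 CPM in the LFC pigs. In the HFC pigs it was between 98.5 CPM and 251 CPM with a median of 204 CPM. The 7 HFC pigs other than replicate 5 all had 178 CPM or more, a level that only LFC replicate 2 exceeded among the LFC pigs. FASN had a log2 fold change of 0.56 ± 0.22 (SE, 95% interval 0.10 to 1.02, n = 8 each, edgeR adjusted p = 0.413), with an exact permutation p of 0.03. In every fit that left out 1 pig it stayed between 0.47 and 0.71, and the unadjusted edgeR p stayed under 0.05. Of the tested genes, 89.8% varied less within the groups than FASN did.

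These 3 enzymes and SREBF1 also moved with the slope of expression on gene span. Over the 16 pigs, Pearson's r between the slope and log2(CPM + 1) was 0.942 for FASN, 0.942 for ACACA and 0.918 for ACLY, and it was 0.778 for SREBF1. The permutation p values, adjusted over the 10 members, were 5e-05, 5e-05, 6.67e-05 and 0.000925, where 1e-05 was the smallest p that 100000 resamples could give before adjustment. Spearman's rho was 0.909, 0.879, 0.735 and 0.706 for the same genes, with adjusted permutation p of 0.0001, 0.0001, 0.0053 and 0.00835. Without the 2 pigs farthest from the median slope r was 0.878, 0.903, 0.813 and 0.621. Without the 3 pigs of low slope r was 0.816, 0.817, 0.698 and 0.446. Of all tested genes, 9.3% had an r of at least 0.8 with the slope and 14.6% one of at least 0.7. The share at the higher values of FASN, ACACA and ACLY was not computed. With the slope as a covariate the log2 fold change of FASN was 0.22, that of ACACA 0.08 and that of ACLY 0.05, each with an edgeR adjusted p of 0.999, and only that of FASN passed an unadjusted 0.05. Without the 3 pigs the values were 0.46 (edgeR adjusted p = 0.239), 0.30 (adjusted p = 0.25) and 0.17 (adjusted p = 0.487), and those of FASN and ACACA passed an unadjusted 0.05. Among the cell markers, the sum of blood and endothelial genes was highest in LFC replicate 4 with 1530 CPM and in HFC replicate 5 with 1170 CPM, both pigs of low slope. The third pig of low slope, LFC replicate 6, had 783 CPM, less than LFC replicate 7 with 963 CPM and a positive slope. Most of the sum was the globin gene HBB, with 582 ± 383 CPM for LFC and 281 ± 317 CPM for HFC (SD, n = 8 each), while the endothelial genes VWF and CDH5 were higher for HFC at an unadjusted p of at most 0.05, with log2 fold changes of 0.78 and 0.43 (edgeR adjusted p = 0.413 and 0.432). The part of these markers in the members' values was not tested.

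**Figure D2:**
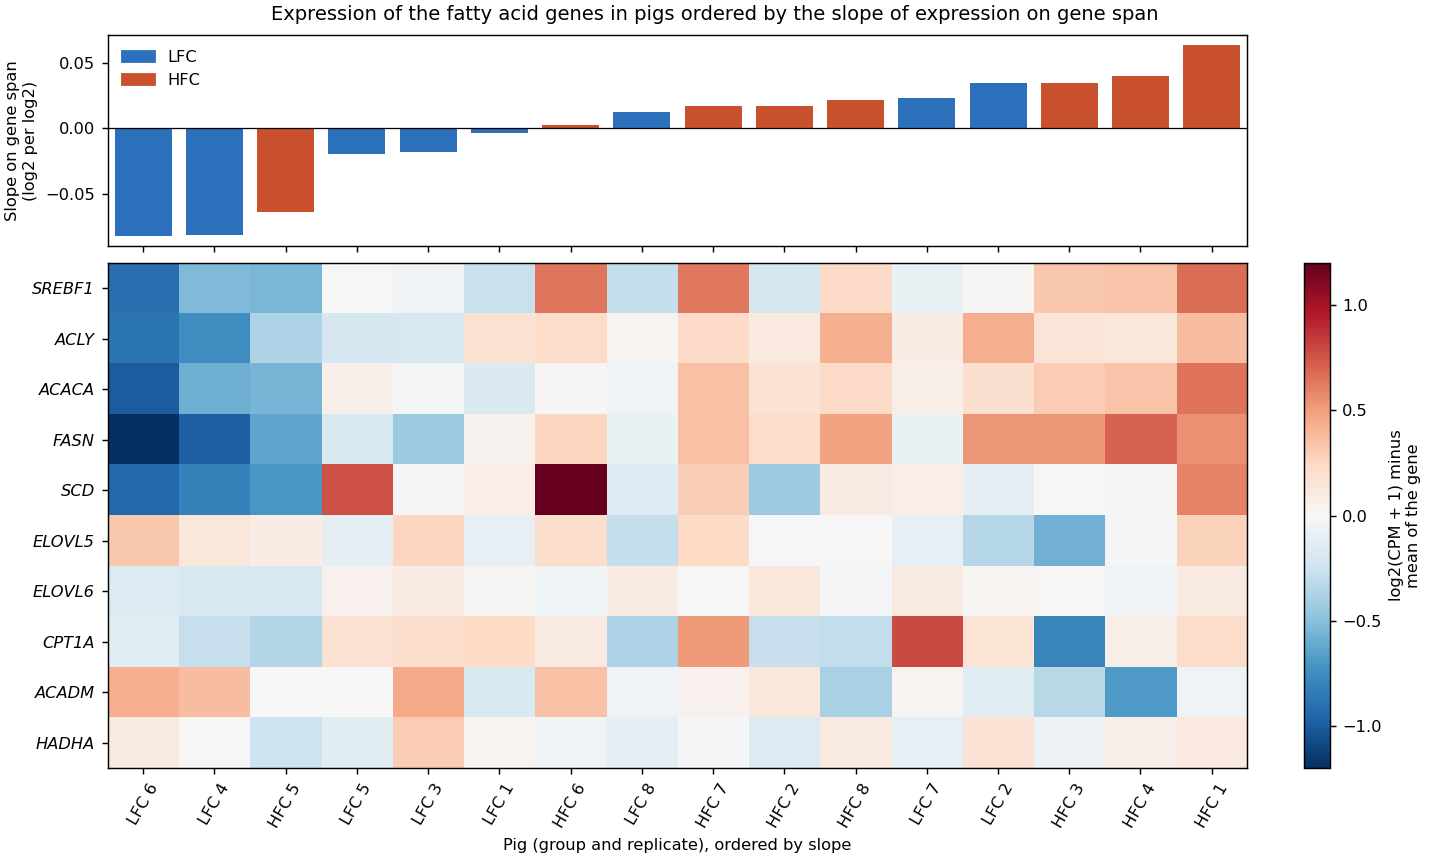
The upper panel shows, for each pig, the slope on log2 gene span of log2 expression minus the mean of each gene over the 16 pigs. Pigs are ordered from the lowest to the highest slope and coloured by group. The lower panel shows log2(CPM + 1) of each gene minus its mean over the 16 pigs, and the blue block at the left is the low level of SREBF1, ACLY, ACACA, FASN and SCD in LFC replicate 6, LFC replicate 4 and HFC replicate 5.

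Of the enzymes that modify the finished chain, none reached an unadjusted p of 0.05. SCD (ENSSSCG00000010554, chromosome 14, 111461157 to 111478031), the stearoyl-CoA desaturase that makes monounsaturated fatty acids, ranged from 36.5 CPM through a median of 67.9 CPM to 121 CPM in the LFC pigs and from 43.4 CPM through 73.8 CPM to 168 CPM in the HFC pigs. A single pig stood far above the rest of its group in each, LFC replicate 5 and HFC replicate 6, and the groups overlapped over most of their range. SCD had a log2 fold change of 0.31 ± 0.26 (SE, 95% interval -0.23 to 0.85, edgeR adjusted p = 0.582, exact permutation p = 0.344), and it was 0.09 without HFC replicate 6 and 0.48 without LFC replicate 5. The same 2 pigs had the highest summed level of oligodendrocyte and glial markers, 6310 CPM in LFC replicate 5 and 3550 CPM in HFC replicate 6, against medians of 320 CPM and 268 CPM in their groups. None of the 7 glial markers tested was higher in the HFC pigs in the fitted fold change, and their part in the level of SCD was not tested. With the slope, SCD had r = 0.574 over 16 pigs (rho 0.397, adjusted permutation p = 0.0292 and 0.185) and r = -0.158 over the other 13, and its log2 fold change was 0.10 with the slope as a covariate. It was the most variable member, with 93.4% of tested genes varying less within the groups.

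ELOVL5 (ENSSSCG00000024149, chromosome 7, 46860499 to 47043818), an elongase of polyunsaturated fatty acids, lay between 41.7 CPM and 67 CPM in the LFC pigs with a median of 49.6 CPM. The HFC pigs lay between 35.5 CPM and 64.8 CPM with a median of 55.1 CPM. HFC replicate 3 was the lowest pig of all, while 7 of 8 HFC pigs were above the LFC median, and the means were 52.9 ± 9.31 CPM and 55.2 ± 9.24 CPM (SD, n = 8 each). On the log2 scale the difference was 0.06 ± 0.12 (SE, 95% interval -0.20 to 0.32, edgeR adjusted p = 0.827, exact permutation p = 0.661), and it was 0.17 with the slope as a covariate.

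ELOVL6 (ENSSSCG00000036236, chromosome 8, 112038686 to 112191299) elongates the saturated and monounsaturated products of FASN and SCD, and it varied least of the members. It ran from 26.8 CPM through a median of 31.4 CPM to 33 CPM in the LFC pigs and from 26.9 CPM through 30.5 CPM to 33.4 CPM in the HFC pigs. The groups covered the same range, with coefficients of variation of 7.99% and 6.79% where counting error alone would give 6.6% and 6.27%, and 0.969% of tested genes varied less within the groups. Its log2 fold change of -0.01 had a 95% interval of -0.17 to 0.14 (edgeR adjusted p = 0.94, exact permutation p = 0.836), so that its bounds were narrower than those of any other member. The sign of this value was not fixed, as it changed under 6 of the 26 alternatives. The 3 lowest levels were those of the pigs with low slope, and r with the slope was 0.733 over 16 pigs (adjusted permutation p = 0.00314) and -0.007 over the other 13.

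The 3 oxidation genes had negative fitted values, and none passed even before adjustment. CPT1A (ENSSSCG00000012880, chromosome 2, 4233109 to 4296733), the carnitine palmitoyltransferase that admits long-chain fatty acids to the mitochondrion and is blocked by malonyl-CoA, was between 23.3 CPM and 53.3 CPM in the LFC pigs with a median of 34.4 CPM. It was between 17.2 CPM and 43.7 CPM in the HFC pigs with a median of 28.5 CPM. LFC replicate 7 was the highest pig and HFC replicate 3 the lowest, with much overlap between. For CPT1A the log2 fold change was -0.20 ± 0.18 (SE, 95% interval -0.58 to 0.18, edgeR adjusted p = 0.616, exact permutation p = 0.322), and it was -0.07 without LFC replicate 7 and -0.32 with the slope as a covariate.

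ACADM (ENSSSCG00000003776, chromosome 6, 137541381 to 137595108), the acyl-CoA dehydrogenase that opens each cycle of beta-oxidation on medium-length chains, ranged from 20 CPM through a median of 23.1 CPM to 31.6 CPM in the LFC pigs and from 13.9 CPM through 22.4 CPM to 29.3 CPM in the HFC pigs. The medians were close, and the difference of the means came from the ends, since 3 LFC pigs were above every HFC pig and 3 HFC pigs were below every LFC pig. Of the 3 highest LFC pigs, replicates 4 and 6 were those of low slope. ACADM had a log2 fold change of -0.23 ± 0.15 (SE, 95% interval -0.54 to 0.08, edgeR adjusted p = 0.504, exact permutation p = 0.144), and without the 3 pigs of low slope it was -0.13. With the slope, ACADM had r = -0.613 over 16 pigs (rho -0.656, adjusted permutation p = 0.0187 and 0.0142) and r = -0.526 over the other 13, and its log2 fold change was -0.08 with the slope as a covariate. The group difference passed an unadjusted 0.05 in 1 of the 16 fits that left out 1 pig, with -0.31 without HFC replicate 6.

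HADHA (ENSSSCG00000008571, chromosome 3, 112752617 to 112800061), the alpha subunit of the trifunctional protein that completes the cycle on long chains, was the next most even member after ELOVL6. Its level ran from 114 CPM through a median of 126 CPM to 155 CPM in the LFC pigs and from 105 CPM through 123 CPM to 136 CPM in the HFC pigs. The groups overlapped but for 2 HFC pigs below and 2 LFC pigs above the range of the other group, and 5.84% of tested genes varied less within the groups. HADHA had a log2 fold change of -0.07 ± 0.08 (SE, 95% interval -0.24 to 0.11, edgeR adjusted p = 0.713, exact permutation p = 0.383), and it lay between -0.09 and 0.00 when 1 pig was left out.

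The other genes of these pathways were read from the same fit, without a test of the lists. Among 28 tested genes of synthesis, elongation and desaturation, 13 had a positive log2 fold change, with a median of -0.02 over the list. The 3 genes higher in the HFC pigs at an unadjusted p of at most 0.05 were FASN, ACACA and FADS2. Of all genes tested, 7.03% were higher in the HFC pigs at that p. Without the 6 members in the list, 8 of 22 log2 fold changes were positive, with a median of -0.08. FADS2, the delta-6 desaturase of polyunsaturated fatty acids, ran from 55.8 CPM through 68.3 CPM to 89.9 CPM in the LFC pigs and from 63.9 CPM through 79.9 CPM to 133 CPM in the HFC pigs. The fitted difference was 0.28 ± 0.13 on the log2 scale (SE, n = 8 each, edgeR adjusted p = 0.433). The largest positive value of the list was that of ELOVL3, an elongase, with 0.62 on 3 to 18 counts per pig and a 95% interval of -0.09 to 1.32 (edgeR adjusted p = 0.46), and the list as a whole was centred near 0, as were all genes tested.

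Among 27 tested genes of the carnitine shuttle and mitochondrial beta-oxidation, 22 had a negative log2 fold change and 5 a positive one. The median was -0.14, and 18.5% of the genes had a positive value, against 47.9% of all genes tested. Under each other scaling tried the positive values numbered 5 or 6. Without CPT1A, ACADM and HADHA it was 5 of 24 genes, with a median of -0.13. No gene of the list reached an unadjusted p of 0.05, and the log2 fold changes lay between -0.23 and 0.10, so that each difference was small. The nearest were ECI2, an isomerase for unsaturated chains, with 55.4 ± 4.61 CPM in the LFC pigs and 50.1 ± 3.12 CPM in the HFC pigs (SD, n = 8 each, log2 fold change -0.15, edgeR adjusted p = 0.433), and ETFDH, which passes the electrons of the dehydrogenases to ubiquinone, with 61.7 ± 4.59 CPM and 55.3 ± 5.54 CPM (log2 fold change -0.16, edgeR adjusted p = 0.433). For ECI2, 0 of 8 HFC pigs exceeded the LFC median, and for ETFDH 1 of 8 did. With the slope as a covariate the median of the list was -0.08, and 8 of 27 values were positive. The genes of a list were measured in the same pigs and are not replicates of each other.

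**Figure D3:**
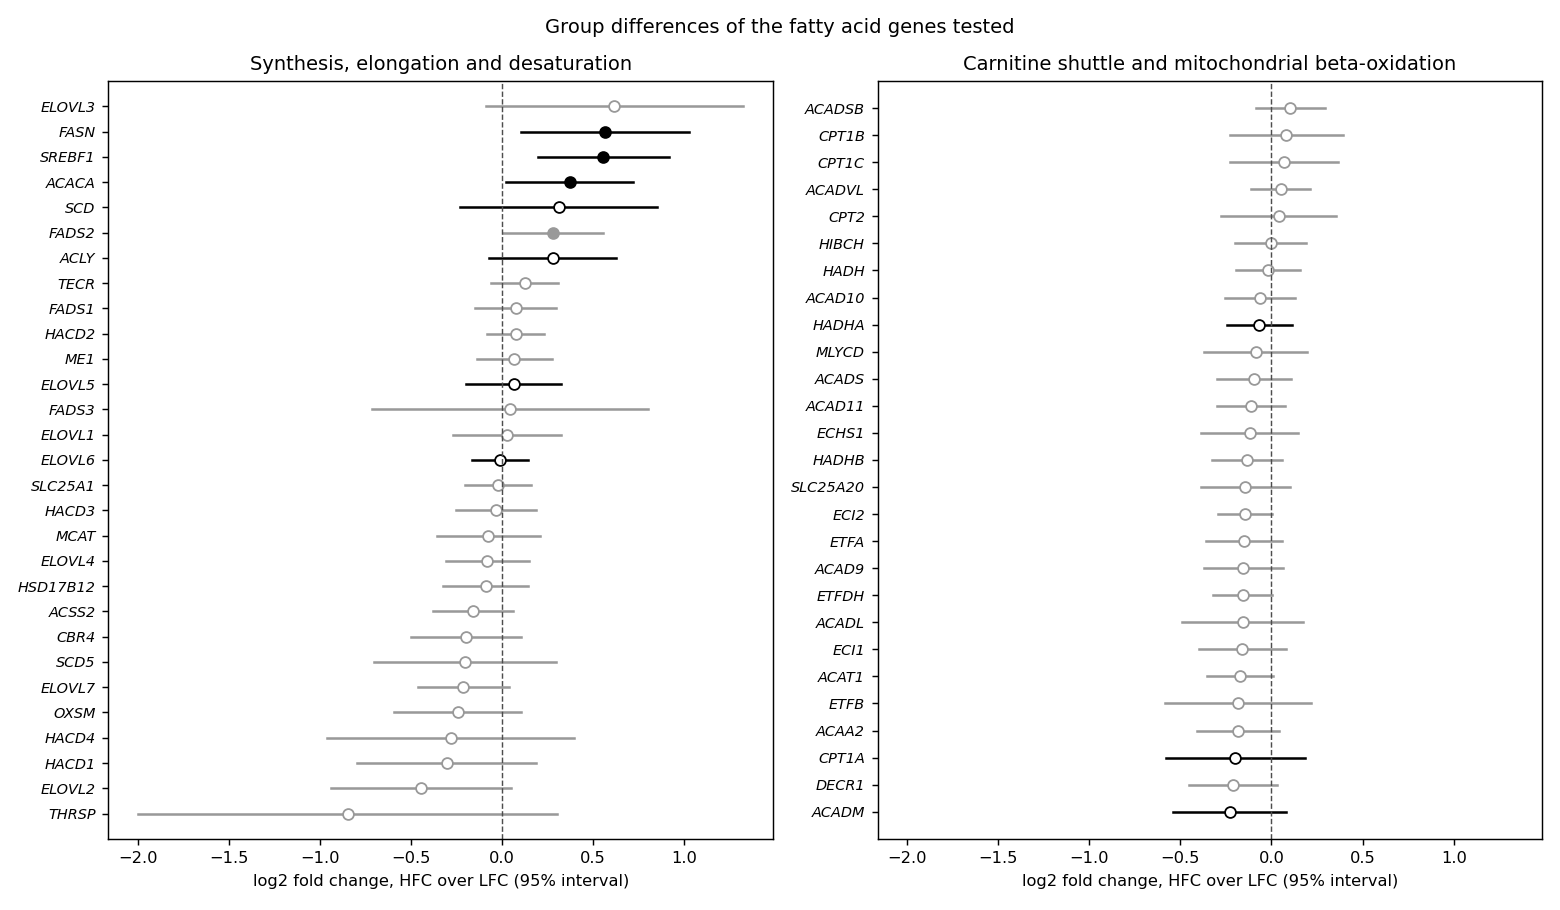
Log2 fold change of HFC over LFC with its 95% interval for SREBF1 and the 28 tested genes of synthesis (left) and for the 27 tested genes of mitochondrial oxidation (right), each ordered by value. Members are black and other genes grey, and filled points have an unadjusted p of at most 0.05. In the right panel 22 of 27 points lie below 0 while their intervals include it.

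Fatty acid activation and peroxisomal oxidation held no gene with an unadjusted p of at most 0.05. The 9 tested acyl-CoA synthetases and fatty acid transporters had a median of 0.03, and ACSL3 and ACSL6 were nearest with 0.13 (edgeR adjusted p = 0.543) and -0.15 (adjusted p = 0.605). The 14 peroxisomal genes also had a median of 0.03, and the nearest was ACOT8, a thioesterase, with -0.21 (edgeR adjusted p = 0.507).

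Among 24 tested regulators of lipid metabolism, SREBF1 and MLXIP were higher and INSIG2 lower in the HFC pigs at an unadjusted p of at most 0.05. Of all genes tested, 7.03% were higher and 4.41% lower at that p. INSIG2 encodes a protein of the endoplasmic reticulum that holds back the processing of SREBPs. It ran from 17.6 CPM through a median of 21.9 CPM to 35.5 CPM in the LFC pigs and from 12.2 CPM through 15.9 CPM to 26.3 CPM in the HFC pigs, where 1 of 8 pigs was above the LFC median. INSIG2 had a log2 fold change of -0.42 ± 0.16 (SE, n = 8 each, edgeR adjusted p = 0.413). MLXIP, a glucose-responsive transcription factor, ran from 32.2 CPM through 39.2 CPM to 64.2 CPM in the LFC pigs and from 34.4 CPM through 58.1 CPM to 73.9 CPM in the HFC pigs, with 7 of 8 HFC pigs above the LFC median. It had a log2 fold change of 0.36 ± 0.16 (SE, n = 8 each, edgeR adjusted p = 0.429). The median of the list was -0.03.

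Of 14 tested genes of lipid storage and release, 1 was higher and 1 lower in the HFC pigs at an unadjusted p of at most 0.05. PLIN3, a coat protein of lipid droplets that many tissues express, was lower, from 20.3 CPM through 24.1 CPM to 30.1 CPM in the LFC pigs and from 12.7 CPM through 17.1 CPM to 24.3 CPM in the HFC pigs. A single HFC pig was above the LFC median, and the log2 fold change was -0.44 ± 0.13 (SE, n = 8 each, edgeR adjusted p = 0.391). PNPLA2, the lipase that starts the release of fatty acids from triglyceride, had 46.1 ± 6.04 CPM in the LFC pigs and 56.5 ± 9.98 CPM in the HFC pigs (SD, n = 8 each), a log2 fold change of 0.29 ± 0.11 (SE, edgeR adjusted p = 0.413). FABP4 was 15 ± 3.04 CPM for LFC and 10.5 ± 2.03 CPM for HFC (SD, n = 8 each, log2 fold change -0.52, edgeR adjusted p = 0.391), and 0 of 8 HFC pigs were above the LFC median. The summed level of the adipocyte markers, nearly all of it FABP4, was between 10.6 CPM and 19.9 CPM in the LFC pigs and between 8.13 CPM and 13.7 CPM in the HFC pigs, and its part in these values was not tested.

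The synthesis genes varied together from pig to pig. Of 45 pairs of members, 13 had a Pearson's r with a permutation p of at most 0.05 after adjustment over the pairs, and 12 of these joined members of the synthesis side. The share of pairs of all genes that would pass was not computed. Of all tested genes, 25% had an r of at least 0.5 with the slope and 25% one of -0.5 or less. The closest pair was ACLY and FASN, with r = 0.943 over 16 pigs (Spearman's rho 0.862, adjusted permutation p = 0.00015 and 0.0009). ACACA followed FASN with r = 0.924 (rho 0.879, adjusted permutation p = 0.00015 and 0.0009) and SREBF1 with r = 0.872 (rho 0.856, adjusted permutation p = 0.00015 and 0.0015). SCD was nearest to SREBF1, with r = 0.819 (rho 0.794, adjusted permutation p = 0.00127 and 0.0036), and less close to FASN, with r = 0.605 (adjusted permutation p = 0.045). The single pair across the pathways was FASN and ACADM, with r = -0.71 (rho -0.709, adjusted permutation p = 0.00945 and 0.0151). HADHA, CPT1A and ELOVL5 were in none of the 13 pairs.

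Fewer pairs passed when pigs were left out, and r of the closest pairs fell by differing amounts. After centring on the group means, 14 pairs passed. With the 2 pigs farthest from the median left out, 4 pairs passed the adjusted threshold, and r was 0.859 for ACLY and FASN, 0.822 for ACACA and FASN, 0.78 for ACACA and SREBF1, 0.723 for SCD and SREBF1 and -0.585 for FASN and ACADM. Without the 3 pigs of low slope, no pair passed, and the smallest adjusted permutation p was 0.0504 for ACLY and FASN. The same 5 pairs then had r = 0.789, 0.722, 0.698, 0.626 and -0.676 over 13 pigs, so that their direction was kept, while FASN and SCD had r = -0.004. ACACA and ACLY, with r = 0.873 over 16 pigs, had r = 0.485 over the 13. Within the groups, 10 pairs passed in the 8 LFC pigs, which hold 2 of the 3 pigs, and none in the 8 HFC pigs, where ACLY and FASN had r = 0.84 (exact permutation p = 0.0456 before adjustment). After removal of the part linear in the slope, SCD and SREBF1 kept r = 0.723 and ACACA and SREBF1 r = 0.659, the highest residual values among the pairs named here, and no residual pair passed after adjustment. The residual r was 0.593 for ACLY and FASN, 0.324 for ACACA and FASN and 0.062 for ACACA and ACLY. For FASN and ACADM it was -0.5.

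**Figure D4:**
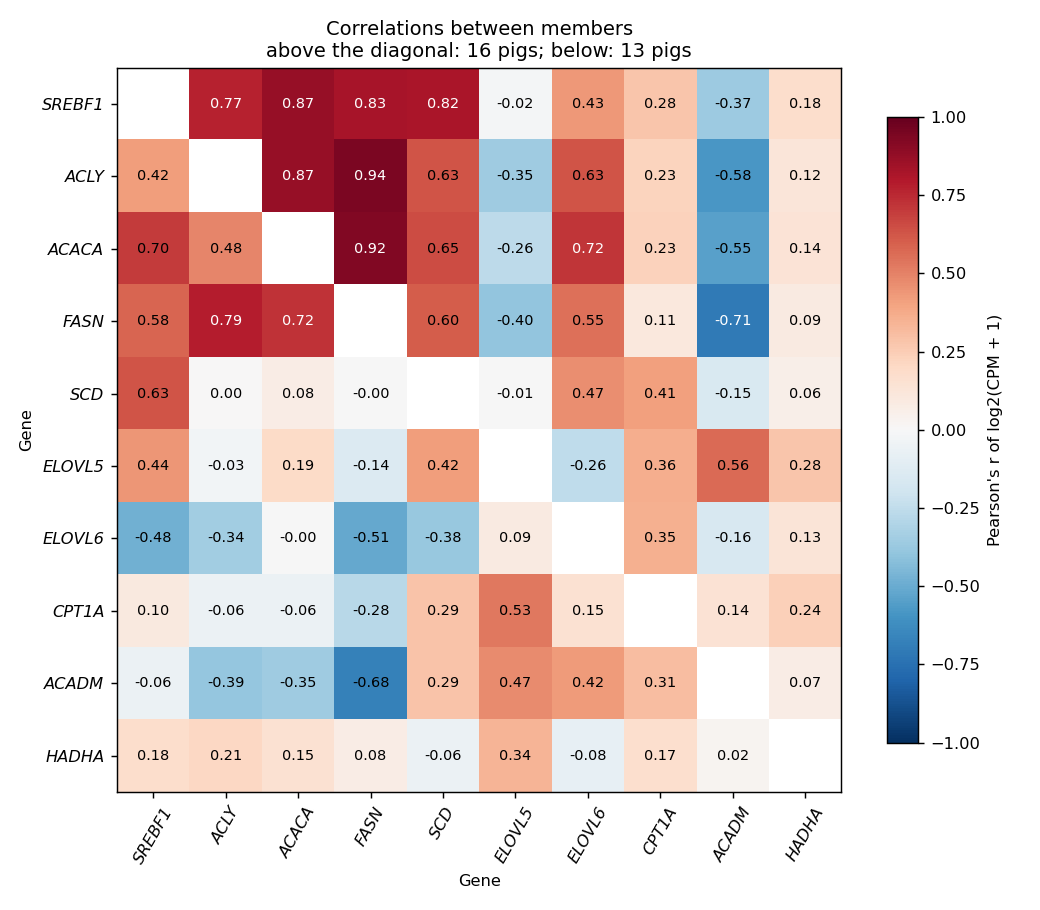
Pearson's r of log2(CPM + 1) between the members, over 16 pigs above the diagonal and over 13 pigs, without the 3 of lowest slope, below it. ACLY, ACACA and FASN have r between 0.87 and 0.94 above the diagonal and between 0.48 and 0.79 below it.

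The genes whose level was most like that of a member, after subtraction of the group means, differed between the members. For FASN they were PRRC2B, HCFC1 and PRRC2A, with Pearson's r of 0.984, 0.982 and 0.981 over 16 pigs, among 13620 other genes. ACLY and ACACA stood at place 139 and 357 of that order, with r of 0.937 and 0.903. For SREBF1 they were FBXW11, SEC14L1 and FYCO1, with r of 0.937, 0.932 and 0.918, and SCD stood at place 56 with 0.854 and ACACA at place 98 with 0.834. For HADHA they were FGD4, the unnamed gene ENSSSCG00000024411 and TGFA, with r of 0.842, 0.805 and 0.777. These likenesses are descriptions over pigs that share the spread of the slope.

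The ratio of FASN to HADHA, in CPM of the same pig, ran from 0.458 through a median of 1.21 to 1.57 in the LFC pigs and from 0.938 through 1.59 to 1.92 in the HFC pigs. With ACADM in place of HADHA it ran from 1.98 through 6.06 to 10.8 and from 4.34 through 9.21 to 18.1. The groups overlapped in both ratios. The highest ratio of FASN to ACADM, 18.1, was that of HFC replicate 4, which had both the highest FASN level and the lowest ACADM level of all pigs. The 4 members SREBF1, ACLY, ACACA and FASN all lie on chromosome 12, which holds 6.07% of the tested genes with a position. The 661 tested genes of that chromosome had a median log2 fold change of 0.01, and 49 of them were higher and 18 lower in the HFC pigs at an unadjusted p of at most 0.05. Of all 10890 tested genes with a position, 747 were higher and 496 lower at that p, with a median of -0.02.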

How the data were processed

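RNA of whole pituitaries was sequenced without strand information, so overlapping genes on opposite strands cannot be told apart. After trimming and alignment to Sscrofa11.1 with STAR, the authors counted reads per gene with RSEM, and the deposited counts are whole numbers without normalization. The authors' deposited comparison was used only for symbols and positions, and its fold changes and p-values were not used. Symbols came from it for 9550 genes and from the Ensembl names for 5875 more.

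Pigs were grouped by the labels, in which the feed conversion group stands under a tag for another trait. The main test was the quasi-likelihood F test of edgeR 4.0.16 (R 4.3.3) after TMM scaling and the filterByExpr filter by group, with Benjamini-Hochberg adjustment over 13621 genes. DESeq2 1.42.0 and limma 3.58.1 (voom) were alternatives, with other scalings, filters, a replicate block, the slope as covariate and each pig left out. Omission of the 3 pigs of lowest slope was chosen after seeing the data. The slope used 10890 tested genes with a known span. Standard errors came from the F statistic. Exact permutation tests (two-sided, 12870 arrangements of the pigs) were run on log2(CPM + 1) of single genes, and correlations used 100000 resamples (scipy 1.17.1). The p-values measure the spread between pigs. Scripts were tested on simulated data. Gene lists and members were chosen with earlier results of these data known. Named genes were the members, in each list the genes with an unadjusted p of at most 0.05 (at most 4, otherwise the 2 of smallest p), and the 3 genes most like FASN, HADHA and SREBF1. A gene that this rule names is not reported here. ELOVL3 and the cell markers given by name were chosen after their values were seen. Of the listed genes, ACACB, MECR, SLC22A5, ACSM3, PPARG, CD36 and DGAT2 were not tested. Sequences were not used here.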

Additional observations from a re-analysis of the deposited data

Results flagged for a closer look

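Within each group of 8 pigs, a pig was singled out when its distance to the nearest other pig took a larger share of the range of the group than Dixon's 95% limit allows. Of 20 groups examined, 10 genes in LFC and in HFC pigs, 4 held such a pig, where chance gives about 1 in 20. ACLY in HFC replicate 5 was 163 CPM, with the next pig at 228 CPM. SCD in LFC replicate 5 was 121 CPM, with the next pig at 75.1 CPM. ELOVL5 in HFC replicate 3 was 35.5 CPM, with the next pig at 52.9 CPM. CPT1A in LFC replicate 7 was 53.3 CPM, with the next pig at 36.1 CPM. HFC replicate 5 was among the pigs of low slope on gene span and LFC replicate 5 had the highest sum of glial markers, and the part of either in these values was not tested.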

How the results depend on the processing

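No member was called under any alternative run, and 2 to 4 members passed an unadjusted 0.05 in all of them. Over all genes, DESeq2 called 29 where edgeR called 0. At an unadjusted p of at most 0.05 there were 1559 of 13621 genes (11.4%) by edgeR. By DESeq2, which was run without that filter, there were 1893 of 18963 genes (9.98%). Every member but ELOVL6 kept its direction in all 26 alternatives, though HADHA came to 0.00 after rounding without LFC replicate 3 and to -0.01 without HFC replicate 5. ELOVL6 was at 0.00 with at least 10 counts in every pig and between -0.03 and 0.03 when 1 pig was left out. The synthesis genes at an unadjusted p of at most 0.05 numbered 1 with total library scaling, 6 with voom (3 in each direction), 5 with the slope as covariate, 5 without the 3 pigs of lowest slope and 1 to 7 when 1 pig was left out, the extreme of 7 being without HFC replicate 5. The mitochondrial oxidation genes, 0 in edgeR, numbered 3 with upper-quartile scaling, 3 with total library scaling, 2 with DESeq2, 4 with voom, 1 with the slope as covariate, 3 without the 3 pigs and 0 to 4 when 1 pig was left out, and every one of them was lower in the HFC pigs. The cause was not tested. These counts of oxidation genes were out of 27 tested. Over all genes, the share at that p was 11.9% with upper-quartile scaling, 10.2% with total library scaling and 9.98% with DESeq2. With voom it was 18.6%, and without the 3 pigs it was 14.4%. Correlated pairs fell from 13 to 4 without the 2 farthest pigs, to 0 within the HFC pigs, 0 as residuals on the slope and 0 over 13 pigs. The share of all genes at an unadjusted p of at most 0.05, 11.4%, was 7.4% without LFC replicate 4, 7.23% without HFC replicate 4, 25.7% without HFC replicate 5 and 4.77% with the slope as covariate. Replicate numbers did not pair the pigs, as the correlation of same-numbered pigs was over 0.1 in 3 of 8 pairs and no LFC pig was closest to its own number. With the replicate block, 3 members, 4 synthesis genes and 0 mitochondrial oxidation genes passed an unadjusted 0.05. Counting error was largest for ACADM, with 7.29% in the LFC and 7.53% in the HFC pigs, while the spread of ELOVL6 was closest to its counting error. The 95% intervals of 7 of the 10 members included 0.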
